A study of Mus musculus with 18 samples.

Results

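The 9 products of the Paneth cell other than defensins examined were the lysozymes Lyz1 and Lyz2, the ribonuclease Ang4, the lectins Itln1 and Mptx2, the protease Mmp7, the lipase Pnliprp2, the protease Habp2 and the stress protein Nupr1. They were chosen by symbol, with earlier results of these data known. These 9 genes of the 55487 in the counts table were all present and all passed the filter on low counts. The question was whether the lower defensin RNA under adrenergic agonists extends to the other products of the same cell type. RNA was sequenced from small intestinal organoids of WT female C57BL/6N mice, which are epithelial cultures grown from isolated crypts. The organoids were treated for 4 days with norepinephrine at 1 µM (5 samples), with its vehicle HCl (4 samples), with the α2-adrenergic agonist UK14304 at 1 µM (5 samples) or with its vehicle DMSO (4 samples). The sample names carry a number from 1 to 5, taken here as the mouse, and mice 1 to 4 gave 1 sample to each group while mouse 5 gave agonist samples alone.

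Paneth cells sit at the base of the small intestinal crypt between the stem cells and fill their secretory granules with antimicrobial proteins. They discharge these into the crypt lumen, and they also send growth signals to the neighbouring stem cells. Organoids keep this cell type without immune cells, nerves or bacteria, so RNA changes in them are those of epithelium in culture. In whole organoids a lower level can mean fewer Paneth cells or less RNA in each cell, and these cannot be told apart here.

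Positions are on GRCm38, and gene spans come from the annotation used for counting. The starts used for the printed sequences are those of RefSeq. For Lyz2, Mptx2 and Nupr1 those starts lie inside the spans, so the printed stretches overlap the spans. Lyz1 (ENSMUSG00000069515, chr10:117287797-117292868) and Lyz2 (ENSMUSG00000069516, chr10:117277331-117282321) are neighbours on the minus strand, and their transcripts match over 1264 bp at 95.8% identity. Lyz1 is the lysozyme of Paneth cells and Lyz2 that of macrophages. The 130 bases before each RefSeq start are shown because the pair differ so much in level. Of these, 120 are the same at the same distance from the start (92.3%). Capitals mark the 10 that differ (RefSeq, GRCm38.p6, minus strand, chr10:117292869-117292998 and chr10:117282273-117282402).
Lyz1: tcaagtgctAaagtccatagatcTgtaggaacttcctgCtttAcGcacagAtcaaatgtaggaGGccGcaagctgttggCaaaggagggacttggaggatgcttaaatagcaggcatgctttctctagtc
Lyz2: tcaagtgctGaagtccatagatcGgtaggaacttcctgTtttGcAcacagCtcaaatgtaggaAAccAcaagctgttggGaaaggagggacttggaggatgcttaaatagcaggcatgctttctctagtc

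The other 7 genes lie apart from these. Ang4 (ENSMUSG00000060615) is at chr14:51763878-51773590, Itln1 (ENSMUSG00000038209) at chr1:171518122-171535294 and Mptx2 (ENSMUSG00000079180) at chr1:173274382-173277777. Mmp7 (ENSMUSG00000018623) is at chr9:7692090-7699585, Pnliprp2 (ENSMUSG00000025091) at chr19:58759719-58777534, Habp2 (ENSMUSG00000025075) at chr19:56287137-56320822 and Nupr1 (ENSMUSG00000030717) at chr7:126623249-126630861. Exons of Mmp7 and Habp2 overlap those of an antisense gene, and the counting ignored strand by the defaults its header implies. Those partners had 0 to 2 counts (AV064505, beside Mmp7) and 60 to 102 counts (Nrap, beside Habp2) in a sample.

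A pair of upstream sequences goes with the results below. They are those of the member with the largest change and of the member whose most correlated gene was Atf3, a stress response gene. Mptx2 (RefSeq, GRCm38.p6, minus strand, chr1:173277757-173278006) is printed with the TATA box core TATAA in capitals, which begins 49 bases before the RefSeq start. That string, read on both strands, occurs in 24.9% of all 32851 promoter windows of 300 bases and in the windows of 4 of the 9 members (Itln1, Mmp7, Mptx2 and Nupr1). Nupr1 (RefSeq, GRCm38.p6, minus strand, chr7:126625471-126625720) is printed with the CHOP-ATF4 element TGATGNAA. Here it is on the opposite strand as TTGCATCA, in capitals 110 bases before the RefSeq start. This element is found in 3.97% of all windows, in 1 of the 9 members, and in 4 of 8 stress response genes (Asns, Atf3, Chac1 and Trib3). The TCF/LEF core CTTTGAT, the element read by Wnt signalling, was found in 3.73% of windows and among the members in Mmp7 alone. These matches describe letters, and factor binding was not measured.
Mptx2: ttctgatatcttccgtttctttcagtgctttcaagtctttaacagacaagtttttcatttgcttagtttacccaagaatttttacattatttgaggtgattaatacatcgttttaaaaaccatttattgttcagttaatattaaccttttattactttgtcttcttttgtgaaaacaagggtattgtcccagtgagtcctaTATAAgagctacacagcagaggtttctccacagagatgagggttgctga
Nupr1: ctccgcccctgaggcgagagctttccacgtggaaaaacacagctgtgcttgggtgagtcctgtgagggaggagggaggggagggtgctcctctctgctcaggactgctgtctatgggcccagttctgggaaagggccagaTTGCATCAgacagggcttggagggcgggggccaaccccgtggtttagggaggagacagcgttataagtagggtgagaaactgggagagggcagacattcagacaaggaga

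Total counts per sample were 21.87 M to 27.85 M. In 7 libraries ribosomal RNA took 1.83% to 3.06% of counts against 0.313% to 0.619% in the rest, and they were unequally spread (HCl mouse 4, DMSO mice 1 to 3, norepinephrine mice 4 and 5, UK14304 mouse 1). A single library stood apart in its effect on the fit: without the norepinephrine sample of mouse 4 the genes called for norepinephrine went from 16 to 2529 and those for UK14304 from 186 to 1225. Calls that changed without it are given beside the results. Values below are CPM, which are read counts scaled to library size after TMM normalization, log2 changes come from a model of all 18 samples with the mouse as a block, and a gene passed at a Benjamini-Hochberg adjusted p under 0.05 over 15247 genes.

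Per kilobase of exon, the vehicle levels spanned more than 3 orders of magnitude. Lyz1 (1170 ± 246 CPM per kb with HCl, SD, n = 4) and Itln1 (1190 ± 157) were level within their spread, and over the 8 vehicle samples they ranked 11 and 12 of 15247 genes. Ang4 followed at 264 ± 48.8 CPM per kb, then Mmp7 at 101 ± 15.2 and Pnliprp2 at 67.7 ± 11.9. Lower still were Mptx2 at 36.2 ± 11.5, Nupr1 at 11.5 ± 2.46 and Habp2 at 6.82 ± 1.17 CPM per kb. Lyz2 was lowest at 0.718 ± 0.24 CPM per kb, which came from 13 to 34 counts a library or 0.0489% to 0.128% of the Lyz1 counts.

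Mptx2 and Lyz1 fell with both agonists, and Mptx2 changed most. Under norepinephrine 2 of the 9 members fell (Lyz1 and Mptx2) and none rose, where 0.0918% of all tested genes fell and 0.0131% rose. Under UK14304 4 of 9 fell (Lyz1, Ang4, Mptx2 and Pnliprp2) and none rose, where 1.04% of all genes fell and 0.177% rose. The members were chosen with earlier results of these data known, so these shares are no independent test. The median log2 change of the members was -0.21 with norepinephrine and -0.28 with UK14304, where the median of all tested genes was -0.01 and -0.00 (-0.00774 and -0.00432 before rounding). Without the norepinephrine sample of mouse 4, 6 of 9 members fell with norepinephrine (Ang4, Mmp7, Itln1 and Pnliprp2 in addition) and 7 of 9 with UK14304 (Mmp7, Itln1 and Nupr1 in addition), beside 16.7% and 8.08% of all genes called in either direction.

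Each of these calls was lost without the pairing by mouse. In the fit without the block 0 members passed with edgeR for either agonist. DESeq2 without the block also gave 0, beside 0 and 46 of 15247 genes. In the edgeR fit 2 members for norepinephrine and 3 for UK14304 had an unadjusted p under 0.05, all lower. There 0% of all genes passed for norepinephrine and 0.0394% for UK14304. Ignoring the mouse, agonist and vehicle samples overlapped for each of the 9 members, whereas every agonist sample lay under every vehicle sample for 0.78% of all genes with norepinephrine and 1.78% with UK14304.

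**Figure D1:**
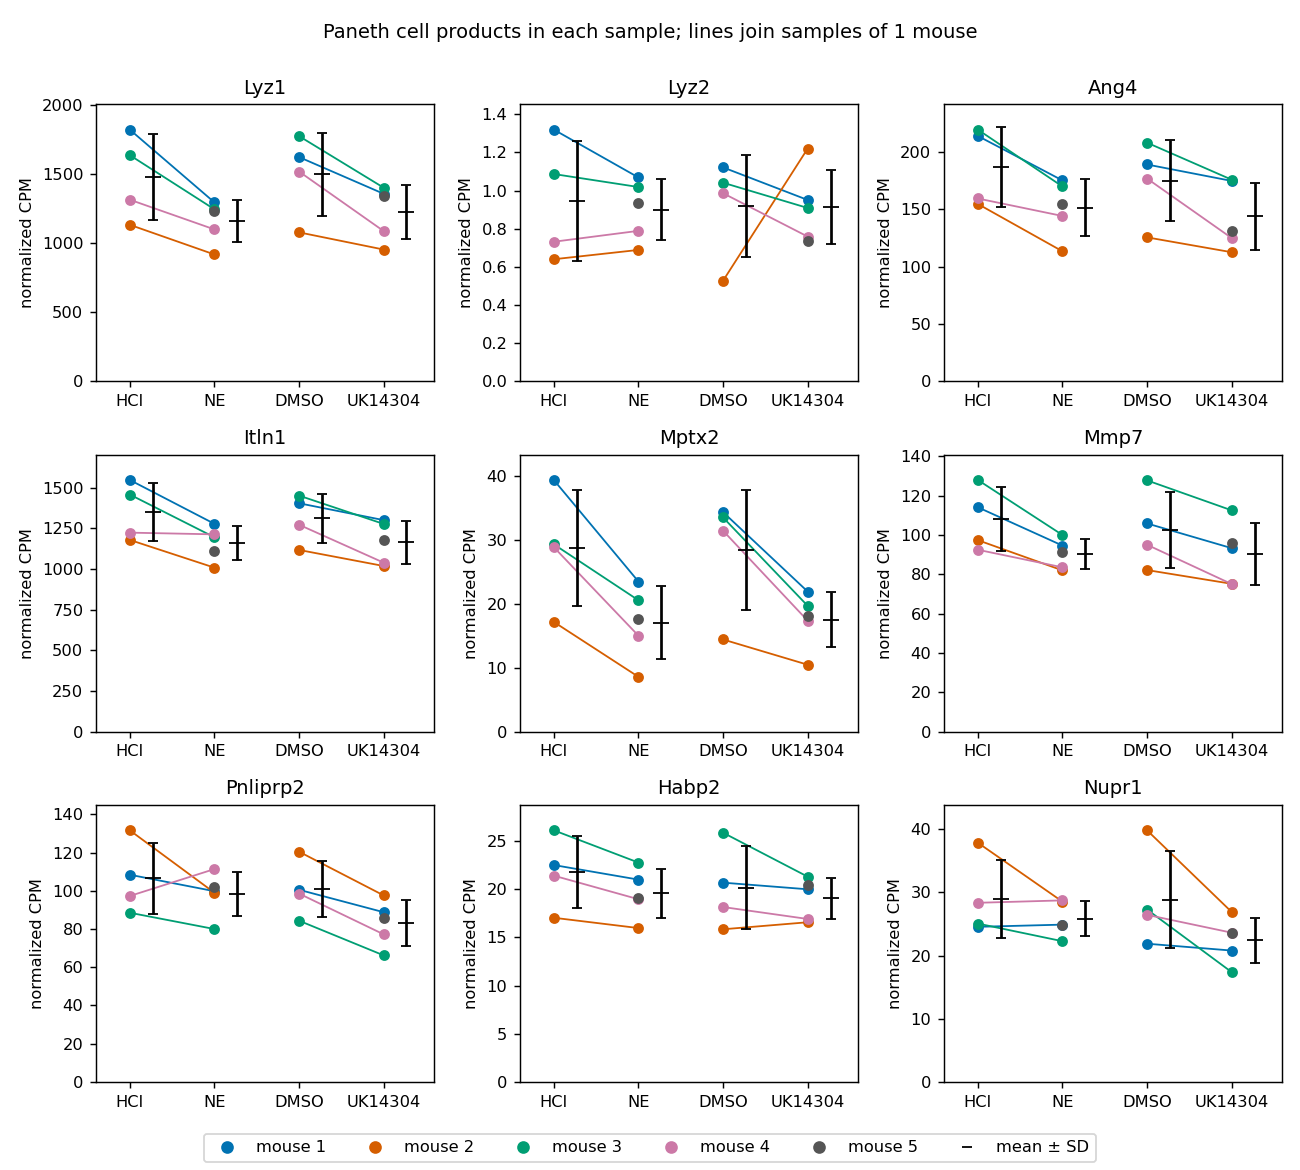
Normalized CPM of each gene in every sample (y axis, linear from 0) by group (x axis; NE, norepinephrine), coloured by mouse, with lines joining the vehicle and agonist samples of 1 mouse and black bars for mean ± SD (n = 4 for vehicles, 5 for agonists). For Lyz1, Ang4, Itln1, Mptx2 and Mmp7 every line slopes down, while the groups overlap, with mouse 2 lowest or next to lowest in each group. Of all genes 8.28% (norepinephrine) and 15.5% (UK14304) were lower in all 4 mice.

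Mptx2, a pentraxin made by Paneth cells that binds microbes, changed most. With HCl it stood at 39.4, 17.2, 29.3 and 28.9 CPM in mice 1 to 4, and with norepinephrine at 23.5, 8.58, 20.6, 15.0 and 17.6 CPM in mice 1 to 5. With DMSO it stood at 34.4, 14.4, 33.6 and 31.5 CPM, and with UK14304 at 21.9, 10.5, 19.7, 17.4 and 18.1 CPM. Mouse 2 was lowest in all 4 groups and its vehicle samples lay under most agonist samples of the others, yet each of the 4 mice was lower with each agonist. Of all genes 8.28% were lower in all 4 mice with norepinephrine and 15.5% with UK14304. Mptx2 fell by 0.78 on the log2 scale with norepinephrine (SE 0.081, adjusted p = 9.23e-05) and by 0.70 with UK14304 (SE 0.0798, adjusted p = 0.000189). On the linear scale it fell by 41.8% and fell by 38.4%. Both calls held without any single sample, with an adjusted p of at most 0.00274 and 0.00521.

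Lyz1, which cleaves the bacterial cell wall, stood at 1822, 1133, 1637 and 1315 CPM with HCl and at 1295, 918, 1245, 1099 and 1230 CPM with norepinephrine. It stood at 1623, 1078, 1775 and 1519 CPM with DMSO and at 1357, 954, 1402, 1087 and 1340 CPM with UK14304. The order of the mice was similar in each group, with mouse 2 at the bottom. All 4 paired mice were lower with each agonist, as they were for 8.28% (norepinephrine) and 15.5% (UK14304) of all genes. The log2 change of Lyz1 was -0.37 with norepinephrine (95% interval -0.48 to -0.26, adjusted p = 0.0019) and -0.31 with UK14304 (-0.42 to -0.20, adjusted p = 0.0031). It passed without any single sample for both agonists.

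Lyz2, the neighbouring lysozyme, is a marker of macrophages. It lay between 0.64 and 1.32 CPM with HCl, 0.689 and 1.07 with norepinephrine, 0.527 and 1.12 with DMSO, and 0.735 and 1.22 with UK14304. Its log2 change was -0.03 (95% interval -0.57 to 0.51) and 0.04 (-0.48 to 0.57), so that a change as large as that of Lyz1 was not detectable at this depth. Of the 7 other macrophage markers Adgre1 and C1qb were at 0 in all 18 samples, and the 7 summed to 5.19 to 7.17 CPM a sample. Reads that match both lysozymes were not counted, and how many of the few Lyz2 counts come from Lyz1 transcripts was not tested.

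Ang4, an angiogenin that kills bacteria, stood at 214, 155, 219 and 159 CPM with HCl and 175, 113, 170, 144 and 155 CPM with norepinephrine. With DMSO it stood at 189, 125, 208 and 177 CPM and with UK14304 at 175, 113, 176, 125 and 131 CPM. It was lower in all 4 mice with either agonist, as were 8.28% of all genes with norepinephrine and 15.5% with UK14304. The fall was least in mouse 4 with norepinephrine and most in mouse 4 with UK14304. Ang4 fell by 0.28 on the log2 scale with UK14304 (SE 0.0586, adjusted p = 0.022) and its change with norepinephrine was -0.29 (SE 0.059, adjusted p = 0.0702). The norepinephrine value passed without the sample of mouse 4 (adjusted p = 0.0095). The UK14304 call was lost with a term for ribosomal RNA share (log2 change -0.28, adjusted p = 0.0707), with the trend on gene length removed (-0.20, adjusted p = 0.0837), with GC trend removal and the ribosomal RNA term together (-0.30, adjusted p = 0.153), without DMSO mouse 3 (0.116) or 4 (0.127), and without UK14304 mouse 2 (0.0623) or 3 (0.0522).

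Itln1 and Mmp7 moved in the same direction by less. Itln1, an intelectin that binds microbial sugars and is also made by goblet cells, was 1352 ± 179 CPM with HCl (SD, n = 4) against 1162 ± 104 with norepinephrine (n = 5), and 1312 ± 150 with DMSO (n = 4) against 1164 ± 131 with UK14304 (n = 5). Its log2 changes were -0.21 (adjusted p = 0.122) and -0.17 (adjusted p = 0.0811). Mmp7, the matrilysin that activates mouse pro-defensins, was 108 ± 16.2, 90.4 ± 7.57, 103 ± 19.3 and 90.4 ± 15.8 CPM in the same order of groups. Its log2 changes were -0.26 (SE 0.0512, adjusted p = 0.0563) and -0.20 (SE 0.0512, adjusted p = 0.0685). Both genes were lower in 4 of 4 mice with each agonist, as were 8.28% of all genes with norepinephrine and 15.5% with UK14304, and both passed for both agonists without the norepinephrine sample of mouse 4 (adjusted p of 0.000273 and 0.0022 for Itln1, 0.0017 and 0.00968 for Mmp7).

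Pnliprp2, a lipase related to pancreatic lipase, stood at 108, 132, 88.5 and 97.3 CPM with HCl and at 99.8, 99, 80, 111 and 102 CPM with norepinephrine. With DMSO it stood at 101, 120, 84.3 and 98.5 CPM and with UK14304 at 88.8, 97.6, 66.2, 77.2 and 85.8 CPM. Mouse 2 was highest here in both vehicles, and mouse 4 was higher with norepinephrine while the other 3 mice were lower. Pnliprp2 fell by 0.29 on the log2 scale with UK14304 (SE 0.0642, adjusted p = 0.0261), and its change with norepinephrine was -0.12 (SE 0.0642, adjusted p = 0.606). The UK14304 call was lost with the ribosomal RNA term (log2 change -0.26, adjusted p = 0.17), with that and GC trend removal (-0.25, adjusted p = 0.147), without any 1 of the 4 DMSO samples (0.0514 to 0.169) and without UK14304 mouse 2 (0.07), 3 (0.119) or 4 (0.0669). Of 8 pancreatic acinar markers Cpa1, Amy2b and Prss2 were at 0 in all samples, while Ctrb1 averaged 103 CPM.

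Nupr1 encodes a small nuclear protein induced by stress and is not itself a secreted protein. It stood at 24.6, 37.9, 25.1 and 28.4 CPM with HCl and 24.9, 28.6, 22.3, 28.7 and 24.8 CPM with norepinephrine. With DMSO it stood at 21.9, 39.8, 27.3 and 26.5 CPM and with UK14304 at 20.8, 26.9, 17.4, 23.6 and 23.6 CPM. Mouse 2 was again highest with each vehicle. With UK14304 4 of 4 mice were lower, as for 15.5% of all genes, against 2 of 4 with norepinephrine. The log2 change was -0.15 with norepinephrine (SE 0.0876, adjusted p = 0.616) and -0.35 with UK14304 (SE 0.0878, adjusted p = 0.0587). Short stretches of 50 to 70 bp of its long annotated exons nearly match many other genes, which leaves its count less certain.

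Habp2, a hyaluronan-binding serine protease, had the smallest change with UK14304 of the 8 members other than Lyz2. It was 21.8 ± 3.74 CPM with HCl (SD, n = 4) and 19.6 ± 2.54 with norepinephrine (n = 5), and 20.1 ± 4.3 with DMSO (n = 4) and 19.1 ± 2.16 with UK14304 (n = 5). Its log2 changes were -0.16 (95% interval -0.30 to -0.02, adjusted p = 0.56) and -0.08 (-0.22 to 0.06, adjusted p = 0.56).

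**Figure D2:**
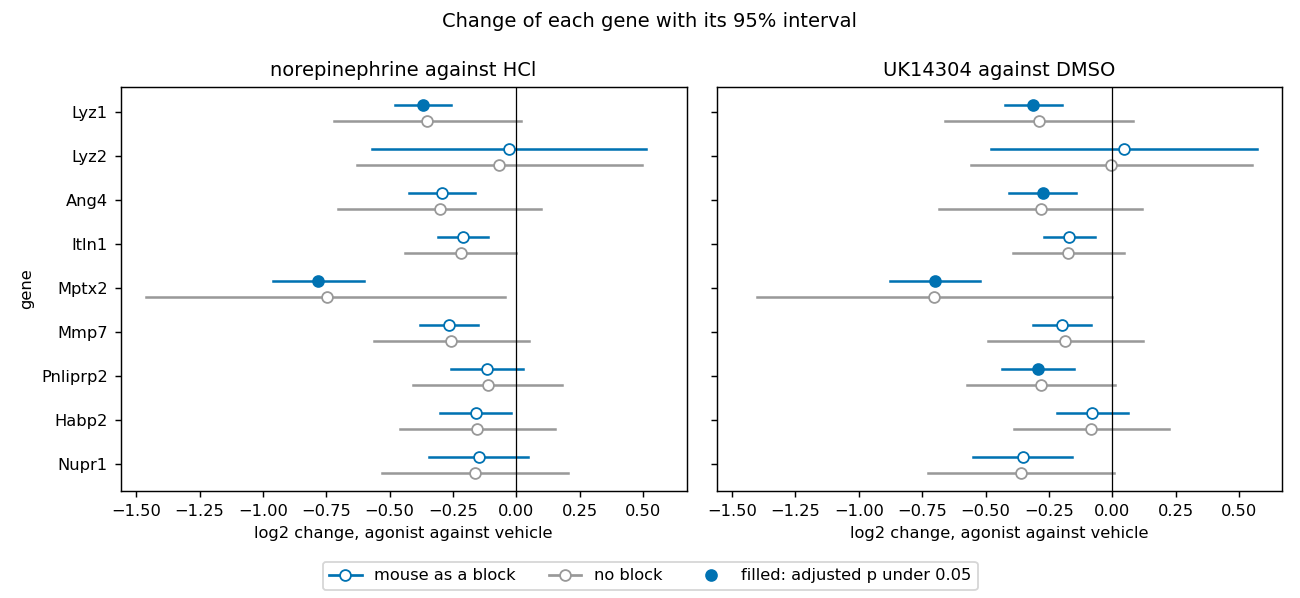
Log2 change of each gene (x axis) for each agonist against its own vehicle, with 95% intervals, for the fit with the mouse as a block (blue) and without it (grey), filled where the adjusted p is under 0.05. The estimates of the 2 fits lie close together, and the blue intervals are much narrower for every gene but Lyz2. All intervals use the 10 residual degrees of freedom of the fit with the block, fewer than the tests used, so those of both fits are somewhat too wide.

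UK14304 is selective for α2 receptors, whereas norepinephrine binds α and β receptors. The difference between the effects passed for 0 of 9 members with edgeR, with 0 at an unadjusted p under 0.05 and 0 with DESeq2, and 0% of all genes passed. The estimate closest to a difference was that of Pnliprp2, which was 0.18 lower with UK14304 on the log2 scale (-0.18, 95% interval -0.37 to 0.02, unadjusted p = 0.0602). For Nupr1 it was -0.20 (-0.47 to 0.07), for Mptx2 0.08 (-0.17 to 0.33) and for Lyz1 0.06 (-0.10 to 0.21). Differences of these sizes between the agonists were within the intervals.

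More members passed a test of differences between mice than of either treatment. Over all 18 samples the F test of the mouse term passed for 8 of 9 members, beside 13.8% of all genes. The adjusted p ran from 8.2e-08 for Mptx2 and 7.01e-07 for Lyz1 to 0.00121 for Nupr1, and it was 0.523 for Lyz2. Mouse 2 had 0.528 times the mean Mptx2 level of the other 3 mice with HCl and 0.436 times with DMSO, and 0.712 and 0.658 times their Lyz1 level. It had 1.46 and 1.58 times their Nupr1 level and 1.34 and 1.27 times their Pnliprp2 level. The summed defensins were also low in this mouse, at 0.733 and 0.713 times the others. The number stands for the culture of that mouse, so animal and culture cannot be told apart.

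**Figure D3:**
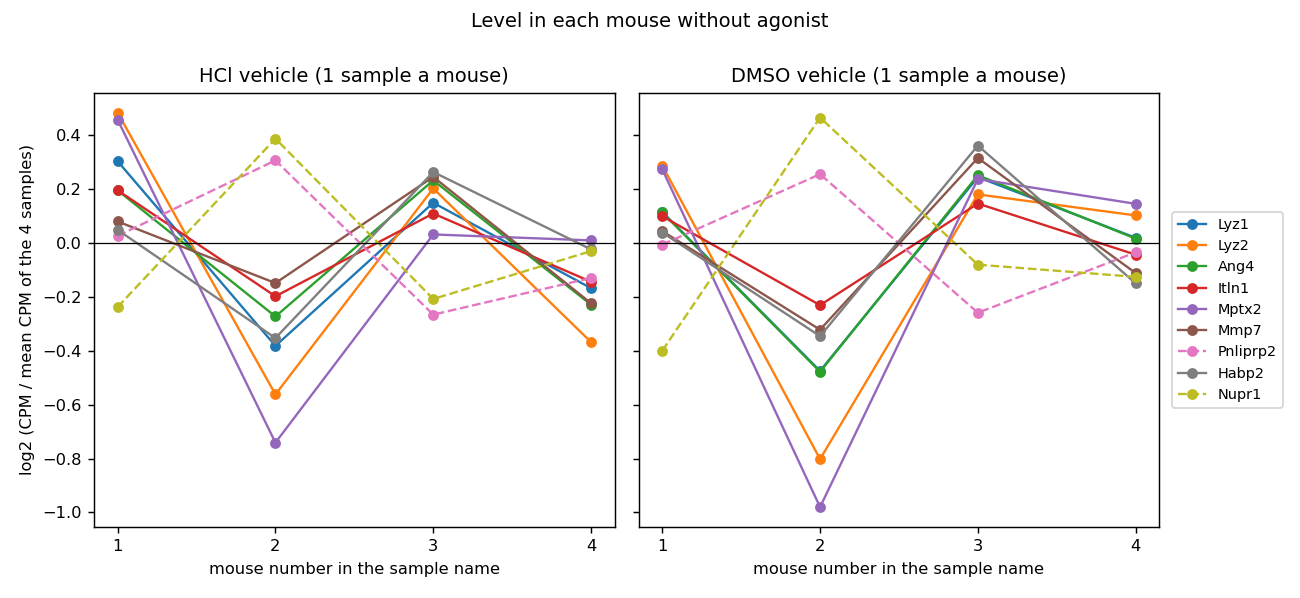
Level of each gene in the vehicle samples of mice 1 to 4 (x axis), as the log2 ratio to the mean of the 4 samples of that vehicle (y axis), for HCl on the left and DMSO on the right. In mouse 2 Nupr1 and Pnliprp2 (dashed) lie highest in both vehicles and the other 7 genes lie below 0.

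The way the genes varied over the 18 samples divided the members. Lyz1, Ang4, Itln1, Mmp7, Mptx2 and Habp2 followed the summed alpha-defensins, with a Pearson r of log2 CPM from 0.834 (Habp2) to 0.969 (Itln1). Nupr1 (-0.35) and Pnliprp2 (-0.13) did not follow them, but followed each other (0.808), and for Lyz2 the value was 0.522. Most like Lyz1 was Defa30 (0.969), most like Mptx2 was also Defa30 (0.96), and most like Ang4 and Itln1 was Defa24 (0.936 and 0.964). Mmp7 was most like Defa22 (0.951), with Atoh1, the factor that commits cells to the secretory lineage at rank 3 (0.898). Most like Nupr1 was Atf3 (0.932), most like Pnliprp2 was Sprr2a3 (0.942), and most like Habp2 was Prss30 (0.938). These values are descriptions over 18 samples that share 5 mice, and the mouse differences enter each of them. Thus 6 members varied with the defensins, and Nupr1, Pnliprp2 and Lyz2 did not or did so less. This cannot check the label of Paneth cell product, because the share of all genes with such correlations was not computed. The value of Lyz2 rests on 13 to 34 counts a library, which limits it.

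**Figure D4:**
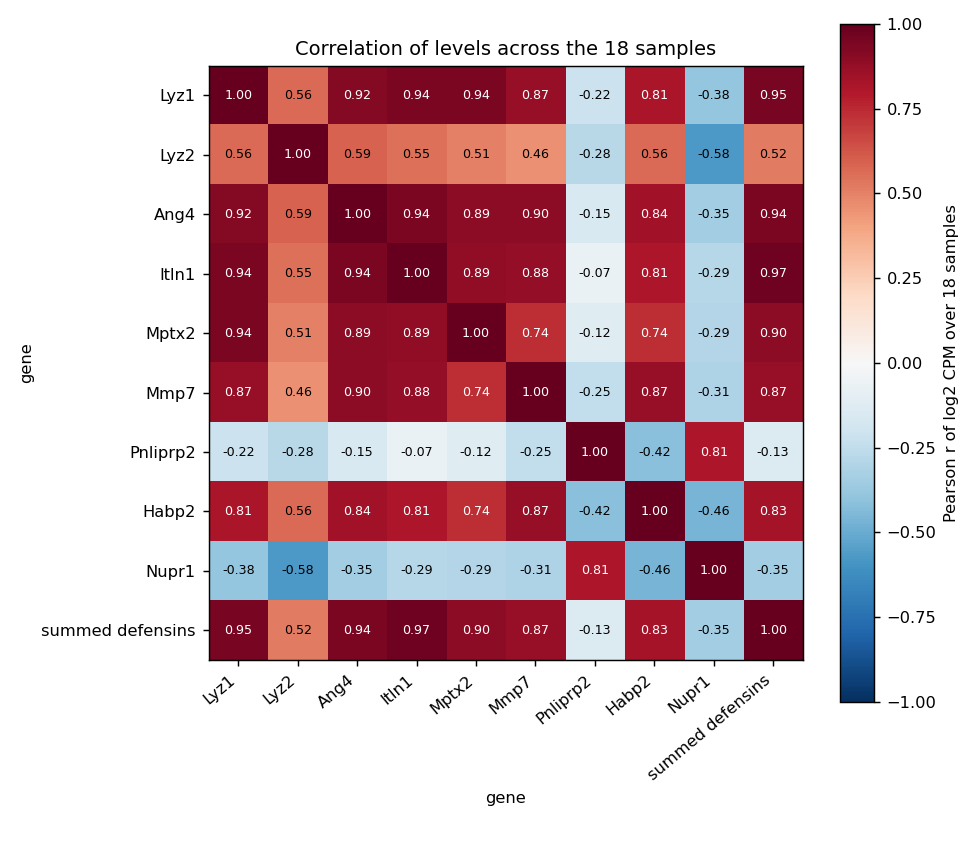
Pearson r of log2 CPM between every pair of members and the summed alpha-defensins over the 18 samples (both axes, genes; colour from -1 to 1). Lyz1, Ang4, Itln1, Mptx2, Mmp7, Habp2 and the summed defensins form a block of high values, and Nupr1 and Pnliprp2 pair with each other at 0.81.

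The alpha-defensins, the main microbicidal peptides of Paneth granules, were measured for comparison. Of the 22 genes named Defa, 9 were at 0 in all samples and 11 could be tested. With each agonist 6 fell, where 0.0918% (norepinephrine) and 1.04% (UK14304) of all genes fell. The median log2 changes of the 11 were -0.45 (norepinephrine) and -0.56 (UK14304). How far reads that match more than 1 defensin gene were lost from these counts was not tested. Without the block 0 of 11 defensins passed for either agonist in edgeR (0% and 0.0394% of all genes), with 4 at an unadjusted p under 0.05 for each. DESeq2 without the block gave 0 and 1 (Defa29 with UK14304), beside 0 and 46 of 15247 genes. When norepinephrine mouse 4 was left out, 8 and 9 of the 11 fell, where 16.7% and 8.08% of all genes were called. Their summed level was 1561 ± 281 CPM with HCl (SD, n = 4), 1298 ± 174 with norepinephrine (n = 5), 1549 ± 255 with DMSO (n = 4) and 1280 ± 255 with UK14304 (n = 5). Defa24 made up 74.2% to 80.3% of that sum, and its own change was -0.22 and -0.24 (adjusted p = 0.556 and 0.0978). Members were then tested relative to the defensins by scaling each library to its summed defensin count, so that 0 means a change in proportion to them.

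Mptx2 was lower than in proportion to the summed defensins with both agonists, a sum made up mostly of Defa24. Single defensins changed by -1.11 to -0.21 with norepinephrine and by -1.21 to -0.24 with UK14304. The Mptx2 changes of -0.78 and -0.70 lay within that range. Its change relative to them was -0.50 with norepinephrine (SE 0.109, adjusted p = 0.0245) and -0.39 with UK14304 (SE 0.108, adjusted p = 0.00872), and it was the single member of 9 that was lower in each case, beside 0.105% and 0.328% of all genes. Without the norepinephrine sample of mouse 4 these values were -0.38 (adjusted p = 0.00051) and -0.38 (adjusted p = 0.000161). The norepinephrine call was lost when HCl mouse 1 or 2 or norepinephrine mouse 1, 2 or 3 was left out (adjusted p from 0.063 to 0.0932). In each of those fits 1 of 15247 genes passed relative to the defensins, against 8019 in the main fit. The Mptx2 change there was -0.58 to -0.47. Habp2 was higher relative to the defensins with UK14304 (0.22, adjusted p = 0.0422), as were 59.7% of all genes, and with norepinephrine, where 52.5% of all genes were higher, its value was 0.11 (adjusted p = 0.278). The UK14304 call was lost with the ribosomal RNA term (0.092) and when any 1 of 11 of the samples was left out (0.0507 to 0.171, highest without DMSO mouse 4).

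The other 7 members did not pass relative to the summed defensins. Lyz1 differed from them by -0.09 (95% interval -0.26 to 0.08) with norepinephrine and -0.01 (-0.18 to 0.16) with UK14304, Ang4 by -0.02 (-0.20 to 0.16) and 0.02 (-0.15 to 0.20), and Mmp7 by 0.01 (-0.16 to 0.18) and 0.10 (-0.07 to 0.27). With Defa24 left out of the sum 6 of 9 members passed with norepinephrine and 5 of 9 with UK14304, which is no more than the 79.1% and 77.5% of all genes called in either direction. Of these members Mptx2 alone was lower than the sum of the remaining defensins. Without the block 0 members passed relative to the defensins for either agonist, beside 0 and 2 of all genes. Mptx2 had an unadjusted p of 0.0109 and 0.0402 in that fit.

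Genes that make or maintain Paneth cells rather than fill their granules were examined next. None of 15 lineage and niche genes passed with edgeR or DESeq2 for either agonist, and 2 had an unadjusted p under 0.05 with norepinephrine and 1 with UK14304. In edgeR 0.105% and 1.22% of all genes passed, so 0 of 15 does not set these genes apart from others. Their median log2 change was -0.05 and -0.00 (-0.00495), and their summed level was 1290 to 1340 CPM with HCl and 1280 to 1330 with norepinephrine. The 2 most abundant were Fzd5, a Wnt receptor, at 0.04 and 0.03, and Cd24a, a surface protein of Paneth cells, at 0.06 and 0.06 on the log2 scale. Atoh1 changed by -0.13 (adjusted p = 0.616) and -0.14 (0.405). Without the norepinephrine sample of mouse 4, when 16.7% of all genes passed for norepinephrine and 8.08% for UK14304, 2 of the 15 fell with norepinephrine (Spdef, a secretory lineage factor, and Ephb3, a receptor that holds Paneth cells at the crypt base) and 0 with UK14304. Several of these genes are also used by stem or goblet cells.

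Of 11 further secreted products 9 were tested, and they did not move one way. Reg3b, a lectin against bacteria, rose by 0.30 on the log2 scale with norepinephrine (adjusted p = 0.00863) and 0.27 with UK14304 (adjusted p = 0.00657). Pla2g2a, a phospholipase that is defective in C57BL/6 mice, fell by 0.49 with norepinephrine (adjusted p = 0.00205) and stood at -0.23 with UK14304 (adjusted p = 0.119). Clps, the colipase that pancreatic lipase needs, was at -0.40 and -0.41 (adjusted p = 0.377 and 0.0683), and Spink4, made by goblet and Paneth cells, at -0.37 and -0.38 (0.301 and 0.0548). The median of the 9 was -0.03 and -0.02. Without the block neither Reg3b nor Pla2g2a passed for either agonist in edgeR (adjusted p of 0.54 to 0.753). With norepinephrine mouse 4 left out, Reg3b rose with both agonists, and Clps, Pla2g2a, Spink4 and Guca2b fell with norepinephrine and the first 3 of these with UK14304, where 16.7% and 8.08% of all genes were called.

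Few markers of neighbouring cell types passed the test, although some had changes as large as the median member, such as Tff3 (-0.23, adjusted p = 0.252) and the tuft cell factor Pou2f3 (0.35, adjusted p = 0.139) with UK14304. Of 6 goblet genes Agr2, which folds mucins, fell with UK14304 (-0.16, adjusted p = 0.0324), beside 1.04% of all genes. With norepinephrine 0 of them passed in edgeR, beside 0.105% of all genes, with 2 at an unadjusted p under 0.05 and 1 call in DESeq2 (Agr2). The most abundant of them, the mucus protein Fcgbp, was at -0.08 with each agonist, and the mucin Muc2 was at 0.00189 and 0.11. Without the norepinephrine sample of mouse 4, 4 of 6 goblet genes fell with norepinephrine and 3 with UK14304 (16.7% and 8.08% of all genes called), and with the ribosomal RNA term 0 passed. Their summed level ranged from 3150 to 4800 CPM with HCl, 2620 to 4320 with norepinephrine, 2910 to 4740 with DMSO and 2750 to 4270 with UK14304. The part of goblet cells in the level of Itln1 was not tested. Among 34 tested markers of stem cells, enterocytes, enteroendocrine cells, tuft cells, macrophages, acinar cells and proliferation, 0 passed with either agonist in edgeR. The share of all genes that passed was 0.105% and 1.22%. Unadjusted p-values under 0.05 were found for 2 (norepinephrine) and 11 (UK14304), and DESeq2 gave 0 and 1 (Apoa4). Without the norepinephrine sample of mouse 4, 6 and 7 of the 34 passed, where 16.7% and 8.08% of all genes did, and the proliferation genes Mki67 and Top2a were among them, higher with both agonists.

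The stress response genes are Atf4 and others that become active when protein folding or amino acid supply fails. Nupr1 is a known member of the same response. With UK14304 5 of 8 fell, where 1.04% of all genes fell: Atf3 (-0.72, adjusted p = 0.000564), Trib3 (-0.50, 0.0102), Ddit3 (-0.48, 0.00658), Atf4 (-0.28, 0.00451) and Asns (-0.22, 0.00537). With norepinephrine 0 of 8 passed with edgeR or DESeq2, where 0.105% of all genes passed in edgeR. Of the 8, 4 had an unadjusted p under 0.05, all lower. Without the block 0 of 8 passed with UK14304 in edgeR (0.0394% of all genes), with 4 at an unadjusted p under 0.05. In DESeq2 without the block 2 passed (Atf4 and Atf3), beside 46 of 15247 genes. For Atf3 the norepinephrine value was -0.21 (adjusted p = 0.576). With the ribosomal RNA term 4 of the 5 kept their calls with UK14304, the exception being Trib3, where 78 of 15247 genes passed. Without the norepinephrine sample of mouse 4 there were 3 calls with norepinephrine and 7 with UK14304, where 16.7% and 8.08% of all genes were called. Nupr1, which correlated with Atf3 over the samples, had its change of -0.35 with UK14304 beside these.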

How the data were processed

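RNA-seq was available for 18 organoid samples in 4 groups. The deposited values are raw counts per gene, which the authors made from single 50 bp reads aligned to GRCm38 by STAR 2.7.3 and assigned by featureCounts (the file header names featureCounts 2.0.1 and Ensembl 102, the methods Subread 1.6.4). The table also gives merged exon length, and 0 per-sample columns were left unused. No separate normalization had been applied.

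Tests used edgeR 4.0.16 under R 4.3.3 (TMM, filterByExpr by group, robust quasi-likelihood fit of group and mouse over 18 samples, 10 residual degrees of freedom), with Benjamini-Hochberg adjustment over 15247 genes. DESeq2 1.42.0 was an alternative. The mouse number comes from the sample names. Over genes, deviations from the group means correlated at 0.119 to 0.431 (HCl and norepinephrine) and 0.155 to 0.52 (DMSO and UK14304) between samples of the same number, and at -0.07 and -0.09 on average between different numbers, so the numbers were taken to pair the samples. Labels do not state separate animals, and p-values measure the spread between these samples. In data simulated with mouse differences for norepinephrine against HCl over 15247 genes, 66% of genes changed by 0.5 on the log2 scale were recovered with the block. The number of changed genes and the mouse differences were set by hand, so this does not give the power in these data. Every member but Mptx2 changed by less than 0.5. Correlations used log2 CPM with a prior count of 2. Near copies were sought with BLAST+ 2.17.0 and figures drawn with matplotlib 3.10.9.

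The members and gene lists were chosen with earlier results of these data known. All members were named, with list genes that passed for either agonist or otherwise the 2 most abundant, and the 3 genes most correlated with each member. The mouse test, the fit of mice 1 to 4 alone and the joint GC and ribosomal RNA correction were added after seeing the data.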

Additional observations from a re-analysis of the deposited data

Results flagged for a closer look

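Each member and the summed defensins were examined in each of the 4 groups for a sample far from the others, by the gap to its nearest neighbour over the range of the group. Of 40 such groups 2 were past the 95% critical value, and chance gives about 1 in 20. Mptx2 in the DMSO sample of mouse 2 was 14.4 CPM against 31.5 to 34.4 CPM in the other 3 samples. The summed defensins in the norepinephrine sample of mouse 2 were 996 CPM against 1302 to 1410 CPM in the other 4.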

How the results depend on the processing

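The number of members called moved with the settings, in both directions. For norepinephrine, where 2 members passed, the fit without the replicate block gave 0 with edgeR and 0 with DESeq2 (2 with edgeR at an unadjusted p under 0.05), no filter on low counts 5, DESeq2 with the block 5, removal of the GC trend 4, GC with the ribosomal RNA term 4, and leaving out a sample 2 to 6. For UK14304, where 4 passed, the fits without the replicate block gave 0 and 0 (3 at an unadjusted p under 0.05), no filter 7, DESeq2 with the block 7, the ribosomal RNA term 2, an adjusted p under 0.01 2, and leaving out a sample 2 to 7. Over all genes, norepinephrine calls went from 16 of 15247 to 153 of 33375 without the filter, 34 with DESeq2 and the block, and 28 with GC removed. UK14304 calls went from 186 to 627, 272 and 512 in the same settings, 78 with the ribosomal RNA term and 91 at an adjusted p under 0.01. The most members passed without norepinephrine mouse 4 (6 and 7, beside 16.7% and 8.08% of all genes). For norepinephrine 5 also passed without UK14304 mouse 4, beside 27 of 15167 genes. The 2 for UK14304 came without DMSO mouse 3 or 4 or UK14304 mouse 2 or 3, where 95, 124, 119 and 91 of all genes passed. Lyz1 and Mptx2 were called in each of these alternatives with the block. The difference between the agonists gave 0 in every alternative run. Relative to the defensins, the norepinephrine count of 1 became 0 without the replicate block (0 of all genes) and 6 with Defa24 left out (79.1% of all genes called). It was 0 to 2 without a sample. Where it was 0, 1 of 15247 genes passed, against 8019 in the main fit. It was 2 without UK14304 mouse 4, where 9473 genes passed. The UK14304 count of 2, beside 9159 of all genes, became 0 without the block (2 of all genes) and 5 with Defa24 left out (77.5% of all genes). It was 1 with own vehicle alone (6911 genes), 1 with the ribosomal RNA term (4928 genes), and 1 to 2 without a sample. Some values that had not passed changed sign. These were Lyz2 with norepinephrine with the length trend removed (0.012) or without a sample (-0.114 to 0.118), and Lyz2 with UK14304 without the block (-0.003), with the ribosomal RNA term (-0.06), with that and GC (-0.069) or without a sample (-0.238 to 0.175). Relative to the defensins with norepinephrine they were Lyz1 (0.086) and Ang4 (0.159) with Defa24 left out, and without a sample Ang4 (-0.051 to 0.034) and Mmp7 (-0.027 to 0.054). With UK14304 they were Lyz1 (0.143) and Nupr1 (0.103) with Defa24 left out, Lyz1 (0.005) and Pnliprp2 (-0.003) without the block, Ang4 with the ribosomal RNA term (-0.005), and without a sample Lyz1 (-0.077 to 0.026), Ang4 (-0.034 to 0.053), Nupr1 (-0.162 to 0.039) and Pnliprp2 (-0.056 to 0.048). The cause was not tested. Lyz2, at 13 to 34 counts, was limited by depth.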
